A study of Homo sapiens with 2 samples.

Results

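The liver-enriched microRNAs miR-122, miR-192, miR-194 and miR-215 were examined in HepG2, a line derived from a human hepatocellular carcinoma. The members were the 7 mature arms hsa-miR-122-5p, hsa-miR-122-3p, hsa-miR-192-5p, hsa-miR-192-3p, hsa-miR-194-5p, hsa-miR-194-3p and hsa-miR-215-5p, taken by name among the 2549 miRNAs of an Agilent human miRNA array. They were read by 16 of its 5893 probes and by 140 of its 50980 spots that are not controls. The study looked for miRNAs that differ when an ultraconserved non-coding RNA is overexpressed. The study places that RNA within an intron of the gene RALGAPA1 and downstream of the gene INSM2. It reports that this RNA drives lipid accumulation in liver cells. HepG2 cells were given an adenoviral vector for that RNA (the overexpression condition) or the control vector (Ad-NC), and total RNA was taken at 48 h. There was 1 array for each condition, so a difference between the conditions has no replicate check, no test and no p-value. The precision is limited by the number of arrays. Repeat spots of a probe share an array and an RNA sample, and their SD is technical. The labels name the vector without the suffix that the study uses elsewhere to tell overexpression from inhibition. Overexpression was taken from the series title and the study's text, and each direction below rests on it.

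miR-122 is the hallmark miRNA of hepatocytes, processed from a long non-coding transcript that liver transcription factors drive, and it is known to be low or lost in many hepatoma lines. miR-192 and miR-194 are made together from clustered hairpins, as are miR-215 and a second copy of miR-194, and these miRNAs are known from liver, intestine and kidney and are driven by HNF1 factors. A mature miRNA finds its targets mainly through its seed, so arms with the same seed are grouped as a family.

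The mature sequences are shown because the close likeness of 2 members bears on how their array signals can be read. All 7 members matched an entry in RefSeq (GRCh38.p14), as did 2248 of the 2549 array names. The sequences are given 5′ to 3′ with the seed, bases 2 to 8, in capitals.
hsa-miR-122-5p: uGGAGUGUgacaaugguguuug
hsa-miR-122-3p: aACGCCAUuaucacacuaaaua
hsa-miR-192-5p: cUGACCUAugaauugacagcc
hsa-miR-215-5p: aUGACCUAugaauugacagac
hsa-miR-192-3p: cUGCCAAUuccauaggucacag
hsa-miR-194-5p: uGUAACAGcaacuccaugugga
hsa-miR-194-3p: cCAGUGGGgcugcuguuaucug

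The 7 members held 6 seeds. miR-192-5p and miR-215-5p shared 1 seed, and no other array miRNA with an entry in the RefSeq table carried it. Their sequences were identical at 19 of 21 bases and differed by C1A and C20A, with positions counted from 1 at the 5′ end and the base of miR-192-5p first. The probe sequences were not analysed here, so how far RNA of either miRNA bound to the probes of the other cannot be told from the signals.

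In GRCh38.p14, MIR192 lay at chr11:64891137-64891246 and MIR194-2 at chr11:64891355-64891439, both on the minus strand and within the span of the non-coding gene MIR194-2HG, with 108 bases between them. MIR215 lay at chr1:220117853-220117962 and MIR194-1 at chr1:220118157-220118241, also on the minus strand, with 194 bases between them and within the spans of the coding gene IARS2 and the non-coding gene LOC124904515. MIR122 lay at chr18:58451074-58451158 on the plus strand, within MIR122HG. In that table miR-194-5p came from 2 loci and miR-194-3p from 1. The hairpins on chromosome 11 are shown, with the member arms in capitals, because both arms of each were read on the array.
MIR192: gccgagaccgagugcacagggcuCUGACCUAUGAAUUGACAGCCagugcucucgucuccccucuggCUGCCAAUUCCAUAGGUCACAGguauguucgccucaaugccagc
MIR194-2: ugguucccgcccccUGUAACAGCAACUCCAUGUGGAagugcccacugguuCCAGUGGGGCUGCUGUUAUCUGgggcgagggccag

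The signal of a spot is the processed signal of the scanner software, a background-subtracted brightness with no unit, and each spot carries a flag for being well above background. A probe passed, and is called well above background below, where that flag was set on 50% or more of its spots after outliers were dropped. The dimmest flagged spot was 21.1 with Ad-NC and 17.3 with overexpression, and negative-control spots had medians of 3.83 and 3.41. A miRNA was called measured when 1 of its probes was well above background on both arrays, which held for 229 of 2549 miRNAs (8.98%). On 1 array alone, 31 further miRNAs passed with overexpression and 7 with Ad-NC. Scaled differences are log2 values, overexpression minus Ad-NC, after the 75th percentile of each array (304.6 and 356.5) was set equal, which subtracted 0.23 from every unscaled log2 difference. The median scaled difference of the 229 miRNAs was -0.17, with 60 higher and 169 lower.

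HepG2 kept 4 of the 7 arms at a measured level on both arrays: miR-192-5p, miR-192-3p, miR-194-5p and miR-215-5p. miR-194-3p passed on the overexpression array alone, and both arms of miR-122 stayed below on both arrays. The miR-192/194 cluster and the miR-215/194 cluster thus each had at least 1 measured arm by name, and the miR-122 locus had none. For the miR-215/194 cluster this is limited, since miR-194-5p comes from both clusters. How far miR-192-5p bound to the probes of miR-215-5p cannot be told from the signals. No member lay at least 1.5-fold apart, a size reached by 9 of the 229 measured miRNAs (3.93%), of which 3 were higher and 6 lower. The 4 scaled differences were 0.34, 0.28, -0.21 and -0.45, with a median of 0.039 beside the -0.17 of all measured miRNAs. That gap was not kept under every setting. With the software's total signal per miRNA the medians were -0.024 for the members and 0.010 for all. In the authors' deposited log2 values they were -0.29 and -0.26. Brightness was not ranked between the members, because different probes bind their miRNAs to different degrees.

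**Figure D1:**
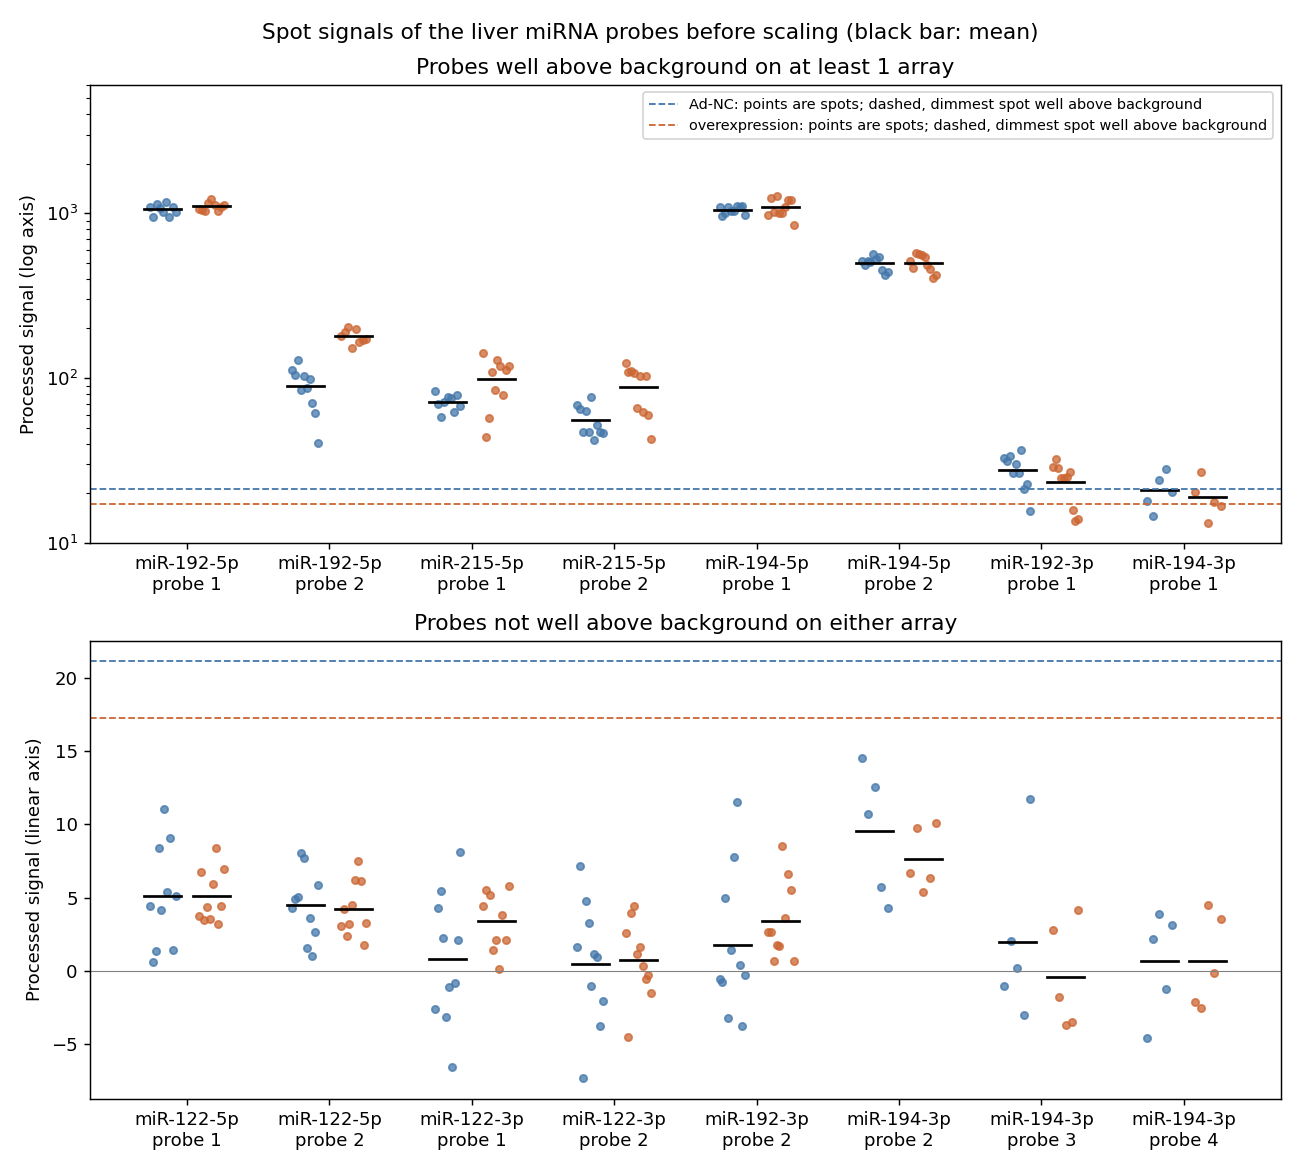
Processed signal of each spot that was no outlier, for the 8 member probes well above background on at least 1 array (upper, log axis) and the 8 that were not (lower, linear axis), with Ad-NC in blue and overexpression in orange. Black bars are means and dashed lines mark the dimmest spot well above background, 21.1 and 17.3, and the spots of the miR-122 probes lie under both lines.

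Neither arm of miR-122 was well above background in either condition. For miR-122-5p, the guide arm that gives the liver its most abundant miRNA, probe 1 had spots from 0.61 to 11.03 with Ad-NC (mean 5.09 ± 3.51, SD, 10 spots) and from 3.21 to 8.40 with overexpression (5.08 ± 1.80, SD, 10 spots). Probe 2 had means of 4.46 ± 2.36 and 4.22 ± 1.86 (SD, 10 spots each). None of the 20 spots of miR-122-5p was well above background on either array, although all 20 had signals above 0.
The software's weaker flag, for a signal positive and significant against local background, was set on 6 of the 10 spots of either probe with Ad-NC. With overexpression it was set on 9 and 5 of 10. Over all spots that were neither controls nor outliers, it was set on 27.9% with Ad-NC and 28.0% with overexpression. Among the 5432 probes well above background on neither array, the probes of miR-122-5p ranked at percentiles 91.9 and 90.2 with Ad-NC and 93.5 and 91.2 with overexpression. The median of those dim probes was 0.33 and 0.037. The miR-122-5p probes thus lay in the upper part of the dim probes and under the 95th percentile of 6.99 and 6.04.
For miR-122-3p, the arm usually degraded, the probe means were 0.80 and 0.47 with Ad-NC and 3.39 and 0.71 with overexpression, and no spot was well above background. A level of miR-122 below the array's limit was not detectable here, and no fold change was given for either arm.

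miR-192-5p, the guide arm of the MIR192 hairpin, had the highest scaled difference of the members as processed here, though not under every setting. Its 2 probes did not move alike. On probe 1, the brighter, 9 spots with Ad-NC ran from 942.6 to 1169 (median 1074) and 9 spots with overexpression from 1029 to 1224 (median 1095). The spots of the 2 arrays overlapped, and 6 of the 9 positions read on both arrays were brighter with overexpression. The scaled difference of this probe was -0.16 ± 0.14, where the error of a difference is the square root of the summed spot variances of both arrays.
On probe 2 of miR-192-5p, 10 spots with Ad-NC ran from 40.5 to 128.8 (median 92.7) and 8 spots with overexpression from 152.7 to 205.3 (median 176.2). Every one of the 8 overexpression spots was brighter than the brightest Ad-NC spot, and the scaled difference was 0.84 ± 0.51, a 1.80-fold higher signal. The software had marked 2 further overexpression spots as outliers, and these lay at the positions that were dimmest with Ad-NC, where the signals were 61.1 and 40.5 with Ad-NC and 84.2 and 60.9 with overexpression. All 10 positions of probe 2 were therefore brighter with overexpression when the outliers were counted. Over the 8 positions that were outliers on neither array, the log2 difference was 0.88 ± 0.20 (SD over positions) before scaling and 0.65 after it.

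The mean over both probes gave miR-192-5p a scaled difference of 0.34 ± 0.37, a 1.27-fold higher signal with overexpression, the 9th highest of the 229 measured miRNAs. The difference was smaller than its spot error. For a miRNA that error is the root mean square of the errors of its probes. It gives the scatter of single spots, not the error of a mean, and leaves out the distance between probes. Under several settings miR-215-5p was higher than miR-192-5p, such as with the total signal (0.50 against 0.10) and the median of spots (0.66 against 0.29). With outlier spots kept they were close, at 0.27 for miR-215-5p and 0.25 for miR-192-5p. Under others miR-192-5p stayed the higher, such as without scaling (0.57 against 0.51 for miR-215-5p). Under the 16 other settings the place of miR-192-5p, counted from the highest, ran from 6 to 105. The 2 probe differences lay 1.01 apart, whereas the median distance between the lowest and highest probe was 0.11 over the 157 miRNAs with at least 2 measured probes, and only 2 of those, miR-192-5p included, had a distance this large. Probes differed in sign in 30 of the 157. The total signal that the software gives for miR-192-5p, unscaled and summed over its probes, was 161.6 ± 15.0 with Ad-NC and 180.8 ± 15.8 with overexpression (error of the software), a ratio of 1.12. Scaled to its own 75th percentile, the total signal gave a difference of 0.10. In the authors' deposited log2 values the difference was -0.17. Both of these lay 0.092 above the median of the miRNAs they measured. The brightest probe alone gave -0.16 after scaling and 0.063 before it, so the sign of that probe came from the scaling step, whereas probe 2 was higher before and after it.

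Among all 393 probes well above background on both arrays, every shared position was brighter with overexpression before scaling in 72 (18.3%), and in the members this held for 1 of 7 probes, probe 2 of miR-192-5p. The spots of the 2 arrays did not overlap before scaling in 42 of the 393 (10.7%), and the same probe was again the 1 of 7 among the members. Outliers were left out of this count. The outlier spots of that probe with overexpression, at 84.2 and 60.9, lay within its Ad-NC range.

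**Figure D2:**
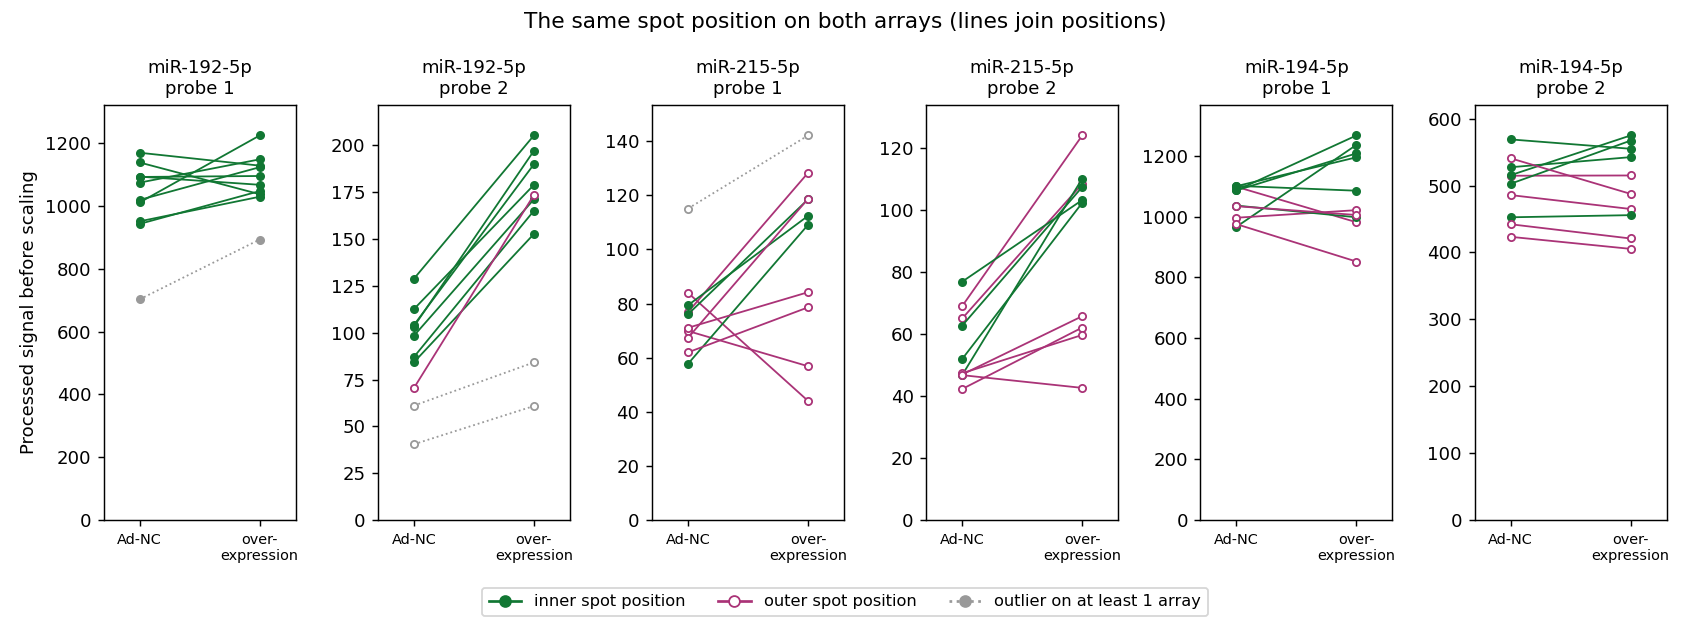
Processed signal before scaling at the same spot position on the Ad-NC and the overexpression array, joined by lines, for both probes of miR-192-5p, miR-215-5p and miR-194-5p, each on its own linear axis from 0. Filled green points are inner positions, open purple points outer positions and grey points outliers on at least 1 array, and all 10 lines of miR-192-5p probe 2 go up, whereas those of both miR-194-5p probes go up at 5 of 10 positions.

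miR-215-5p, the guide arm of the MIR215 hairpin that shares its seed with miR-192-5p, was brighter with overexpression at most positions of both probes. On probe 1, 9 spots with Ad-NC ran from 57.8 to 84.0 (median 71.1) and 10 with overexpression from 44.0 to 142.1 (median 110.8). The overexpression spots were the more scattered, with 7 above the brightest and 2 below the dimmest Ad-NC spot, and the scaled difference was 0.17 ± 0.58. On probe 2, 10 spots with Ad-NC ran from 42.2 to 76.8 (median 49.6) and 10 with overexpression from 42.6 to 123.9 (median 102.7).
This probe was brighter with overexpression at 9 of 10 positions, with 6 spots above the brightest Ad-NC spot, and its scaled difference was 0.40 ± 0.60. Together the probes gave 0.28 ± 0.59, a 1.22-fold higher signal and the 13th highest of 229. The groups of spots overlapped and the difference was smaller than its spot error. The total signal was 18.0 ± 1.55 with Ad-NC and 26.5 ± 2.08 with overexpression, a ratio of 1.48 before scaling.

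The place of a spot on the array moved with the size of the miR-215-5p difference. The outer positions were the 48 rows or 20 columns nearest each edge of a grid of 384 rows and 164 columns. On probe 1, the unscaled log2 difference was 0.69 ± 0.21 at 3 inner positions and 0.15 ± 0.66 at 6 outer ones (SD over positions). On probe 2 it was 0.85 ± 0.34 at 4 inner and 0.47 ± 0.35 at 6 outer positions. In both probes the inner positions gave the higher mean. The outer positions were not alike, from -0.93 to 0.82 on probe 1 and from -0.13 to 0.85 on probe 2. On probe 1, spots in columns 3 and 4 fell from 83.95 to 44.03 and from 69.85 to 56.85. Those in columns 153 and 161 rose from 67.37 to 118.7 and from 76.88 to 128.3. On probe 2, the outer spot in column 55 fell from 46.69 to 42.59. The part of position in the result was not tested. With outer spots left out, an alternative chosen after seeing the data, the scaled difference of miR-215-5p was 0.72, beyond 1.5-fold. Under that setting 12 of 232 measured miRNAs were beyond 1.5-fold. Over all probes measured on both arrays, the median unscaled difference was 0.068 at 2106 inner and 0.035 at 1459 outer spots.

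The arms of miR-194 were close to the median of all measured miRNAs or near the detection limit. The mature miR-194-5p, the guide arm, is the same from both MIR194 hairpins, so its signal does not tell the clusters apart. For miR-194-5p, probe 1 had spots from 966.1 to 1101 (median 1061) with Ad-NC and from 851.7 to 1267 (median 1053) with overexpression, at 10 spots each. Probe 2 ran from 423.4 to 569 (median 508.7) with Ad-NC and from 405.4 to 574.9 (median 501.3) with overexpression, at 10 spots each. The spots overlapped on both probes, 5 of 10 positions were brighter with overexpression on each, and the scaled probe differences were -0.19 and -0.23.
Their mean was -0.21 ± 0.21, a 1.15-fold lower signal, which stood at place 128 of 229 counted from the highest. Before scaling the difference was 0.021, so its sign came from the scaling step that moved every miRNA alike. The 2 probes of miR-194-5p lay 0.041 apart, in contrast to the 1.01 of miR-192-5p. With the same split by position, probe 1 had unscaled differences of 0.13 inside and -0.091 outside, and probe 2 had 0.069 and -0.069.

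For miR-194-3p, the other arm of MIR194-2, 1 of 4 probes was well above background and on the overexpression array only. Its 5 spots ran from 14.5 to 27.9 with Ad-NC (mean 20.9 ± 5.22, SD) and from 13.3 to 27.0 with overexpression (19.0 ± 5.11, SD). The flag was set on 2 of 5 spots with Ad-NC and on 3 of 5 with overexpression, although the mean was the higher with Ad-NC. The dimmest flagged spot of the whole array, as given above, was 21.1 with Ad-NC and 17.3 with overexpression. No fold was given, since the bound came out under 1. The other 3 probes had means of 9.57, 1.98 and 0.67 with Ad-NC and 7.64, -0.43 and 0.66 with overexpression, with no flagged spot.

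miR-192-3p, the other arm of MIR192, was close to the detection limit and had the lowest scaled difference of the 4 measured members. Its measured probe had 10 spots from 15.5 to 36.6 (median 28.1) with Ad-NC, of which 9 were flagged as well above background, and from 13.6 to 32.2 (median 24.98) with overexpression, of which 7 were flagged. The spots overlapped, and 1 of 10 positions was brighter with overexpression. The scaled difference was -0.45 ± 0.44, a 1.37-fold lower signal and the 22nd lowest of 229, with -0.23 before scaling. Its other probe had means of 1.73 and 3.42, with no flagged spot. The 2 arms of MIR192 thus had scaled differences of opposite sign as processed here, 0.34 and -0.45. Most other settings kept the opposite signs, but not all. Both arms were lower in the authors' deposited values (-0.17 and -0.57) and with the brightest probe alone (-0.16 and -0.45). With all probes entering the 75th percentile both were above 0 (0.82 and 0.030). The difference between the arms was not tested.

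**Figure D3:**
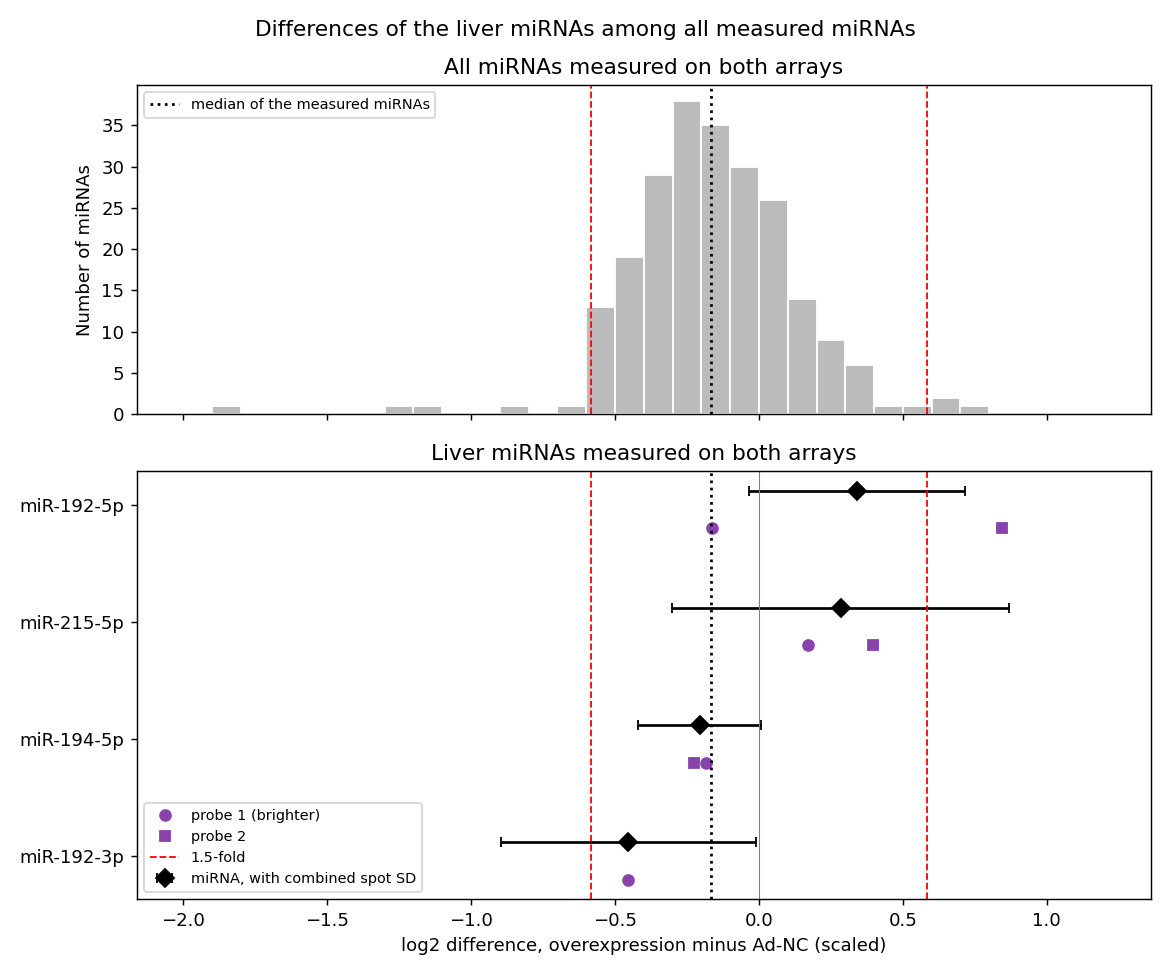
Number of miRNAs by scaled log2 difference, overexpression minus Ad-NC, for the 229 measured miRNAs (upper, bars 0.1 wide) and the 4 measured members (lower), with diamonds for miRNAs, bars for the combined spot SD, and purple points for single probes. Dotted lines mark the median of -0.17 and red dashed lines 1.5-fold, and every diamond lies between the red lines whereas probe 2 of miR-192-5p lies beyond at 0.84.

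In the scaled difference over 2 arrays, the measured miRNAs nearest to miR-192-5p (0.34) were miR-6780b-5p at 0.33 and miR-4465 at 0.35. Those nearest to miR-215-5p (0.28) were miR-4665-3p at 0.29 and miR-6749-5p at 0.28. miR-6089 and miR-151a-3p, at -0.21 and -0.20, were nearest to miR-194-5p (-0.21), and miR-195-5p and miR-320b, at -0.44 and -0.43, to miR-192-3p (-0.45). With 1 difference for each miRNA, this likeness is nearness of a single value.

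The other arms and neighbours of these loci were at background. miR-215-3p, the other arm of MIR215, both arms of miR-3591, whose hairpin lies opposite MIR122, and both arms of miR-6750, whose hairpin lies within ATG2A on chromosome 11 (chr11:64898363-64898437), gave 0 of 5 measured and no flagged spot. Their probe means ran from -3.61 to 6.20 with Ad-NC and from -3.92 to 2.14 with overexpression. miR-3591-3p, which shares 21 bases with miR-122-5p on the opposite strand, had the highest of these with Ad-NC. Its probe 1 had means of 6.20 ± 4.23 with Ad-NC and -1.49 ± 3.22 with overexpression (SD, 10 spots each), both under the detection limits.

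Of 14 other miRNAs known from liver, 9 were measured on both arrays, beside the 8.98% over all miRNAs. Their median scaled difference was -0.24 beside -0.17 for all measured miRNAs, with 3 higher and 6 lower. let-7b-5p, a member of the let-7 family that restrains growth genes, was the only one at least 1.5-fold apart, at -0.82 ± 0.20 on 1 measured probe. The others lower were miR-148a-3p (-0.24), miR-22-3p (-0.24), miR-26a-5p (-0.27), miR-378a-3p (-0.26) and miR-455-3p (-0.34).
Those higher were miR-30c-5p (0.36), miR-455-5p (0.22) and miR-101-3p (0.026), each read by 1 measured probe. The 5 at background on both arrays were miR-885-5p, miR-885-3p, miR-148a-5p, miR-99a-5p and miR-30a-5p. Of 20 listed miRNAs known from brain, muscle, blood, endothelium, stroma, pancreatic islet, stomach or intestine, 19 were names on the array and 0 were measured. Their probe means ran from -3.31 to 9.94 with Ad-NC and from -3.17 to 6.98 with overexpression, and no spot was well above background. miR-133a-3p, a muscle miRNA named after its values were seen, had the brightest of these probes, with means of 9.94 ± 2.55 with Ad-NC and 6.98 ± 2.71 with overexpression (SD, 10 spots each). Both means were above the 95th percentile of the dim probes and under the detection limits. The list does not hold miR-192, miR-194 and miR-215, which are themselves known from intestine and kidney.

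**Figure D4:**
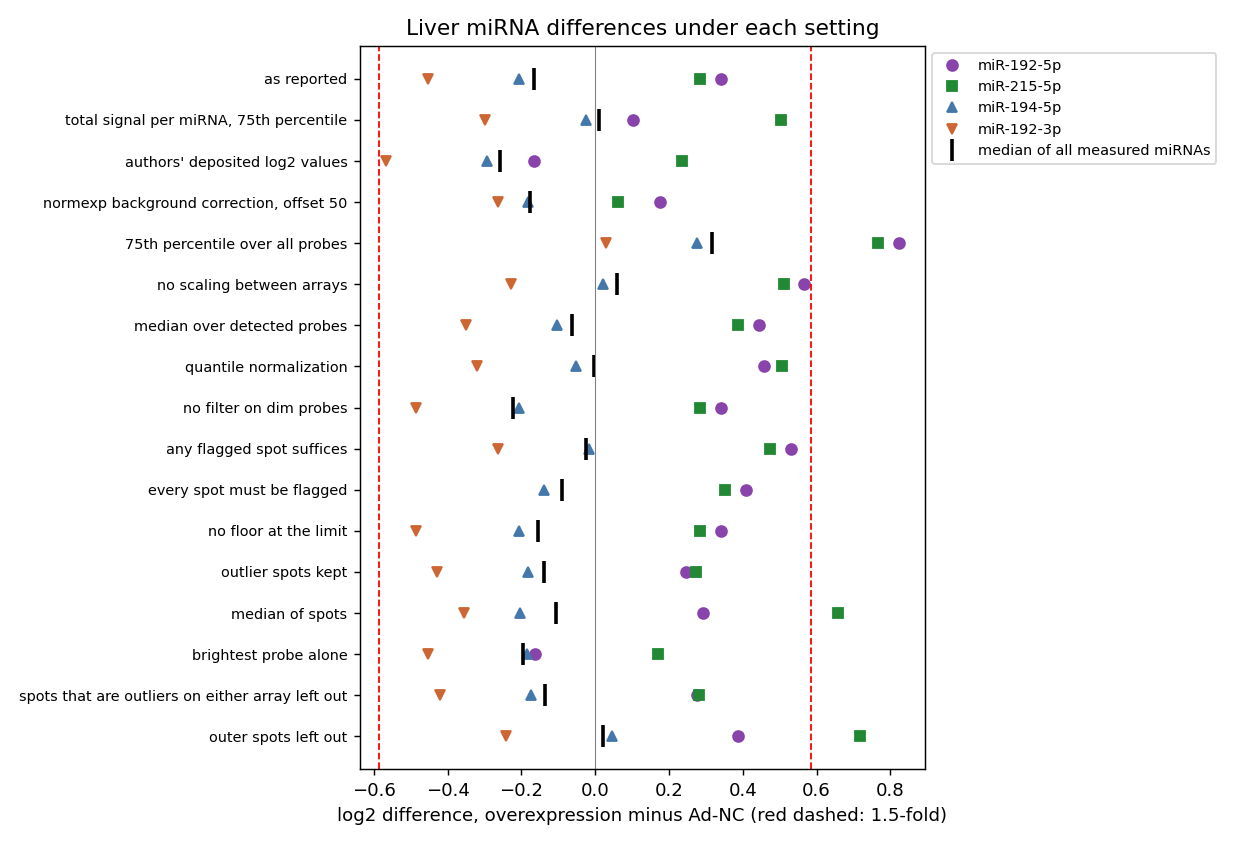
Log2 difference, overexpression minus Ad-NC, of the 4 measured members as reported and under each other setting of the processing, with black ticks for the median of all measured miRNAs and red dashed lines for 1.5-fold. Points of miR-215-5p lie to the right of 0 in every row, from 0.062 to 0.77, whereas those of miR-192-5p run from -0.17 to 0.82.

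The plot of the settings shows how far each member's direction held. miR-215-5p was higher with overexpression under all 16 other settings and above the median of all measured miRNAs by 0.24 to 0.77. miR-192-5p was higher under 14 of 16 and lower under the 2 given above. miR-192-3p was lower under 14 of 15, and miR-194-5p was lower under 13 and higher under 3 of 16. These settings use the same 2 arrays and are no replicates of the conditions.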

How the data were processed

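RNA of HepG2 cells 48 h after the control (Ad-NC) or the overexpression vector was labelled with Cy3 and hybridised to 1 single-colour Agilent miRNA array per condition. The authors made the deposited spot intensities with Agilent Feature Extraction, version 10.10 per the labels and 11.5.1.1 per the file headers, on a grid annotated to hg19. The software subtracted background, and these intensities are not normalized between arrays. The authors also deposited log2 values, normalized with GeneSpring GX according to the methods, whose kind of normalization is not given in the sources used here. Those values served as an alternative.

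Each array had 50980 spots other than controls. Spots marked as outliers, 1273 with Ad-NC and 1657 with overexpression over the whole array, were not used. Spots under the dimmest spot well above background were raised to it. Each probe's value was the mean log2 signal of its spots, minus the array's 75th percentile among the 393 probes that passed detection in both conditions. A miRNA's difference was the mean over its probes measured on both arrays. These steps were tested on simulated data. The simulation gave all probes of a miRNA the same change and held no outlier spots and no effect of position. It therefore cannot tell how the steps handle those. The threshold of 1.5-fold comes from the methods, whose t-test cannot be run on 1 array per condition. Depth does not apply to arrays.

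The members and the lists of neighbours, liver miRNAs and miRNAs of other cells were chosen with earlier results of these data known. Named were all members, the neighbours, the listed miRNAs well above background, and the 2 miRNAs nearest each measured member in difference. Listed miRNAs at background were named after their values were seen. There were 16 alternatives planned and 2 added. Calculations used Python 3.11.15, numpy 2.4.6 and pandas 2.3.3. The normexp background correction (offset 50) was run with limma 3.58.1 in R 4.3.3.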

Additional observations from a re-analysis of the deposited data

How the results depend on the processing

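Under the other settings, 102 values moved by less than the spread between spots or, for counts, by less than 1.5 times, and 11 moved further. With all probes entering the 75th percentile, miR-192-5p was 0.82, miR-192-3p 0.030, miR-194-5p 0.28 and the median of the members 0.52. With that scaling 2 members were beyond 1.5-fold, as were 37 of the 229 measured miRNAs. That scaling adds the same amount to every miRNA, and the median of all measured miRNAs became 0.32. miR-192-5p was -0.17 in the authors' deposited log2 values. Each member measured there lay as far from the median of all measured miRNAs as with the total signal, 0.092 above it for miR-192-5p. That median was -0.26 in the deposited values and 0.010 with the total signal. These 2 settings thus differed by the same amount for every measured member and are not separate checks. Why the medians differ was not tested. With the brightest probe alone, which leaves out its dimmer probe, miR-192-5p was -0.16. The brighter probe was 0.063 before scaling. miR-194-5p was 0.021 without scaling. With the median of spots, 1 member was beyond 1.5-fold, miR-215-5p at 0.66, beside 13 of the 229 measured miRNAs. Leaving out the outer spots and using only spots that were outliers on neither array were chosen after seeing the data. Without outer spots, miR-194-5p was 0.046 and 2 members were beyond 1.5-fold, miR-215-5p at 0.72 and miR-194-3p at -0.62. Of the 232 miRNAs measured without outer spots, 12 were beyond 1.5-fold. The cause of these shifts was not tested. miR-194-3p was measured on both arrays under 4 settings, from -0.62 to -0.20. The -0.62 rests on the inner spots of its probe 1 alone. These were 24.0 and 27.9 with Ad-NC and 13.3 and 17.6 with overexpression, and the dimmest was raised to the limit of 17.3. miR-192-3p had no value where a probe needed the background flag on every spot. At a threshold of 2-fold the count of members stayed at 0, and the software's own detection flag counted 5 members on both arrays in place of 4. No paired analysis was possible because a single array stands for either condition. Levels of miR-122, miR-192-3p and miR-194-3p are limited by the background, with the dimmest spots well above it at 21.1 and 17.3.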
